A study of Mus musculus with 7 samples.

Results

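Glycolysis turns glucose into pyruvate and lactate, and its genes share regulation with the genes by which cells answer low oxygen. The 39 genes described here were taken from a list of glucose transporters, glycolytic enzymes, lactate and pyruvate genes, hypoxia-inducible factor (HIF) subunits with their regulators, and HIF target genes. They were found on the arrays by the gene name that the array files give, and all 39 were present, with 64 probes, among 26944 named genes and 55681 probes in all. The list holds 24 glycolysis genes and 15 hypoxia response genes.

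The cells came from C57BL6J mouse embryos that carried a knock-in of green fluorescent protein (GFP) at Osr1, which encodes a transcription factor of intermediate mesoderm, so that every population shares this allele and GFP marks the cells that express the gene. At E8.5 the embryo was sorted into GFP+ cells and cells without GFP, written GFP-. At E9.5 the caudal part of the embryo gave a gated population of nephron progenitors (GFP+, with the integrin Itga8 and without the receptor Pdgfra), the remaining GFP+ cells, called non-gated here, and the GFP- cells. At E11.5 the metanephric mesenchyme, the embryonic source of nephrons, gave a gated population and the GFP+ remainder. The labels describe sorting by flow cytometry. Embryo numbers and pooling are not stated in the labels. Each of the 7 populations had 1 single-colour array, so no spread between embryos or sorts is known, no test between populations could be run, and every difference below compares 2 arrays. In such sorted bulk samples, fewer cells that carry a transcript and less transcript in each cell cannot be told apart.

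A level is the log2 signal of a gene's brightest probe after division by the 75th percentile signal of its array, so levels of different genes are not comparable with each other and each gene is read across arrays. The standard deviation of a difference from spot noise alone was 0.18 on this scale. Between 56.2% and 84.1% of spots lay well above background, lowest on the array of GFP- cells of E8.5. The labels were checked on the sorted genes: Osr1 was not well above background on either GFP- array, Itga8 was higher in the gate at both stages, and Pdgfra was lower in it. Nephron progenitor genes (6, Six2 and Pax2 among them) had a median level of 3.84 in gated and 0.22 in non-gated cells of E11.5. Marker genes of renal stroma (6 genes, Foxd1 and Pdgfrb among them) had a median level of -0.54 in gated and 3.95 in non-gated cells of E11.5. The arrays lay on 2 slides, with gated and GFP- cells of E9.5 on the second and the other 5 on the first, so differences between gated and non-gated cells of E9.5, and between the gate and other stages, cannot be told apart from slide.

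In background terms, glucose enters cells through facilitative transporters, is trapped by hexokinases, split by aldolase and carried through a chain of shared steps to pyruvate. Lactate dehydrogenase turns pyruvate into lactate, which leaves through monocarboxylate transporters, while pyruvate dehydrogenase kinase keeps pyruvate out of mitochondria. With oxygen present, prolyl hydroxylases mark the HIF alpha subunits for destruction through the von Hippel-Lindau protein. Without it, alpha subunits pair with Arnt and switch on genes for glycolysis, vessel growth and cell stress through short DNA elements. The core of these elements is ACGTG or GCGTG. Early mouse embryos develop in low oxygen and are known for strong glycolysis, and nephron progenitors of the later kidney are known to be glycolytic cells.

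The promoter stretches of 7 members are shown, picked from those on which the results below turn. They are Hk2, Pgk1, Slc2a1, Slc16a3 and Ldha, which were lowest in non-gated cells of E11.5, and Ldhb and Ddit4, which were not. Each line gives 250 bases before the annotated start from RefSeq (build GRCm38.p6), 5′ to 3′ in the direction of the gene. Capitals mark the ACGTG form of the HIF core or its reverse complement CACGT. The GCGTG form was not searched for, so every match counted below is ACGTG or CACGT.
Hk2 (chr6:82774455-82774704, minus strand): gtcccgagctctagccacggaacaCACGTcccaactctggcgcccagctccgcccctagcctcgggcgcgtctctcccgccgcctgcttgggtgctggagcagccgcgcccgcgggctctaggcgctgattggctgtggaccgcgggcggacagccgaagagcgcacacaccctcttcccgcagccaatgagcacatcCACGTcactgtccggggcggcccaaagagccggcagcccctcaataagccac
Pgk1 (chrX:106186850-106187099, plus strand): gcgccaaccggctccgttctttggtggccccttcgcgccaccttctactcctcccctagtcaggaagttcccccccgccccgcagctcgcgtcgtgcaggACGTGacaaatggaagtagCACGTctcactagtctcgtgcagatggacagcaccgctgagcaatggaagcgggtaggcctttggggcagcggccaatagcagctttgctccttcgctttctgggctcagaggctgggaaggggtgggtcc
Slc2a1 (chr4:119108495-119108744, plus strand): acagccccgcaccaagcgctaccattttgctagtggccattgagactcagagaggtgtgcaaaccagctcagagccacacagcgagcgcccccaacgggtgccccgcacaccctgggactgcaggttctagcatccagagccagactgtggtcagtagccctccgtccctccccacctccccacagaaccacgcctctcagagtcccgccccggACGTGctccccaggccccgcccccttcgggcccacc
Slc16a3 (chr11:120948817-120949066, plus strand): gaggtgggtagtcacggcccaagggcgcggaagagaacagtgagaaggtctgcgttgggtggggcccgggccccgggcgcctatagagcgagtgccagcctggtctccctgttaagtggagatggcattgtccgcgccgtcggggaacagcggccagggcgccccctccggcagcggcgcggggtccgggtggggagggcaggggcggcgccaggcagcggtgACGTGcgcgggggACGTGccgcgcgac
Ldha (chr7:46845554-46845803, plus strand): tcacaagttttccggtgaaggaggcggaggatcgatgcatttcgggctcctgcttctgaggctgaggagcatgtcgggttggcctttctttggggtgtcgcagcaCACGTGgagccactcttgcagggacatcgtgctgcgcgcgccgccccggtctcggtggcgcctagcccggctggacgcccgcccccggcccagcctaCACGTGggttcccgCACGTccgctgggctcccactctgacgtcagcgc
Ldhb (chr6:142507958-142508207, minus strand): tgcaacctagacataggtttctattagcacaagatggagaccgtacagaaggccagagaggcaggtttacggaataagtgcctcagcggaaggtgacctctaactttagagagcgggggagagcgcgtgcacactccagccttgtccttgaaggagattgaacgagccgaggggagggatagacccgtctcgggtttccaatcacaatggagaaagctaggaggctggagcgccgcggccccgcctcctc
Ddit4 (chr10:59951771-59952020, minus strand): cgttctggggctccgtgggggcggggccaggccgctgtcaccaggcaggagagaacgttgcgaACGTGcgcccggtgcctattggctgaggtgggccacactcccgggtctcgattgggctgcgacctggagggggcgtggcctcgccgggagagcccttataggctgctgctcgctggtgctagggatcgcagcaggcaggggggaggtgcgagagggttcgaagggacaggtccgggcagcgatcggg
Pgk1 has the core at 150 and 131 bases before its start, counted to the first base of each match, and Slc16a3 has 2 copies within 27 bases of it. Ldha, with 2 promoters in the table, of which the one with a match is shown, has 5 matches, of which 4 come from 2 copies of the palindrome CACGTG read on both strands; this E-box is also bound by other factors. Ldhb has no such match in this window, though its stretch holds the GCGTG form, which was not searched for in any gene. The stretches shown do not stand for all members. Of the other glycolysis genes lowest in non-gated cells of E11.5, Gpi1, Pfkl, Tpi1, Gapdh, Eno1 and Pdk1 had no match. Aldoa, Pgam1, Pkm2 and Pfkfb3 had one before at least 1 start, and Adm had none. Among the 36 members with a promoter in the table, 21 (58.3%) had a match before at least 1 annotated start. The same held for 18.5% of all 27025 genes in the table and for 23.9% of the 9306 genes of the table above background on all 7 arrays. By group, 11 of 23 glycolysis genes and 10 of 13 hypoxia response genes had one. A match describes the letters and not binding, several members are textbook HIF targets, and Slc2a3, Epas1 and Ndrg1 were not in the table.

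Across the 7 arrays, most glycolysis genes were highest at E8.5 and lowest in non-gated cells of E11.5, whereas some hypoxia response genes were highest in those same E11.5 cells. Of the 39 members, 37 were well above background on all 7 arrays, against 57.1% of all named genes. Slc16a1 was not well above it in non-gated cells of E11.5, nor Egln1 in GFP- cells of E8.5. Of the 23 glycolysis genes above background throughout, 12 had their highest level in GFP+ cells of E8.5 and 8 in GFP- cells of E8.5, while 16.9% and 21.3% of all genes above background throughout peaked there. For Ldha, Aldoa, Pgk1, Gpi1 and Tpi1 the 2 E8.5 levels lay within spot noise of each other, so the higher one is not resolved. The Pfkfb3 peak in GFP+ cells of E8.5 lay within spot noise of GFP- cells of E9.5. Non-gated cells of E11.5 held the lowest level of 15 of the 23 (65.2%), against 32.4% of all such genes. Among the 14 hypoxia response genes, 6 were highest in non-gated cells of E11.5, where 16.6% of all such genes peaked: Epas1, Arnt, Vhl, Vegfa, Car9 and Ddit4. This count takes the brightest probe of each gene. Both other Epas1 probes were lowest in these cells, and the second Arnt probe was highest in GFP- cells of E8.5. The Car9 peak lay within spot noise of gated cells of E11.5, and the Vhl peak within spot noise of non-gated cells of E9.5. Of the genes counted, only Vegfa and Ddit4 peaked there beyond spot noise with no other probe against it. GFP- cells of E9.5 held the lowest level of 6 hypoxia response genes, Hif1a, Epas1, Vegfa, Car9, Ankrd37 and P4ha2, against 11.3% of all such genes, and the highest of 1 of the 37, P4ha1, against 8.24%. Other probes of Hif1a, Epas1 and Vegfa had their lowest level elsewhere. On the brightest probes, Hif1a, Vegfa and Ankrd37 lay within spot noise of the next lowest array. These counts rest on 1 array per population and have no test.

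**Figure D1:**
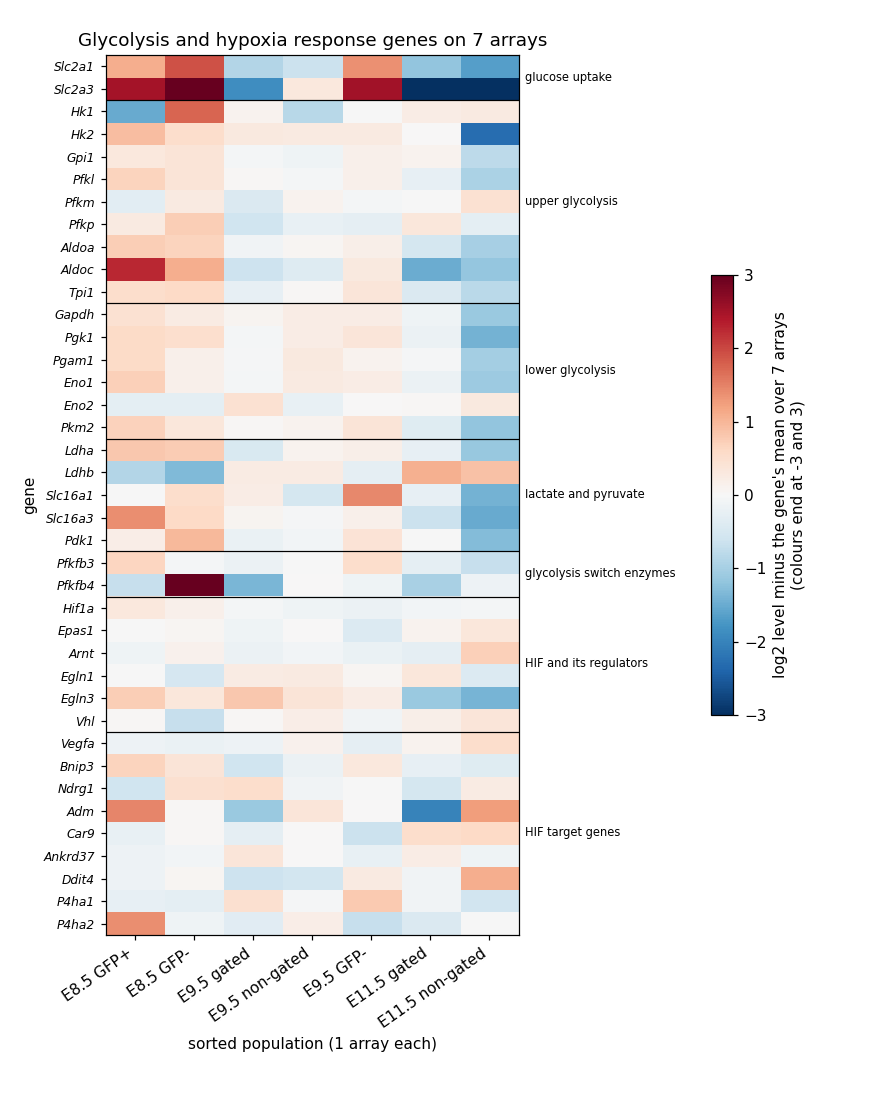
Log2 level of each of the 39 genes (rows, grouped by role) on each of the 7 arrays (columns), minus the gene's mean over the arrays; red is above that mean and blue below, and colours end at 3 log2 units. The column of non-gated E11.5 cells is blue for 15 of the 23 glycolysis genes that have their lowest level there, and Slc2a3 and Pfkfb4 have the widest ranges.

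The median level of the 23 glycolysis genes was 3.70 and 4.25 in GFP+ and GFP- cells of E8.5. It was 3.41, 3.08 and 3.72 in gated, non-gated and GFP- cells of E9.5, and 3.38 and 2.63 in gated and non-gated cells of E11.5. The middle gene differs from array to array, and the scaling holds the median of all genes nearly fixed, so gene by gene differences are given with each comparison. The 14 hypoxia response genes had medians between 1.01 and 1.96, lowest in GFP- cells of E9.5 and highest in GFP+ cells of E8.5. In all, 13 of the 37 members (35.1%) differed by at least 4-fold between their highest and lowest array, against 15.5% of the 15380 genes.

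Glucose transporters had some of the widest ranges. Slc2a1, the general glucose transporter of embryonic cells, stood at 5.38 in E8.5 GFP+ and 6.20 in E8.5 GFP- cells, at 3.41 in the E9.5 gate, 3.65 in E9.5 non-gated and 5.66 in E9.5 GFP- cells, and at 3.12 in the E11.5 gate and 2.63 in E11.5 non-gated cells. It was high in both E8.5 populations and in the GFP- cells of E9.5 and lower in the GFP+ cells of the later stages, a range of 11.9-fold. Slc2a3, a high-affinity transporter of neurons and early embryos, stood at 3.70 in E8.5 GFP+ and 4.25 in E8.5 GFP- cells, at -0.67 in the E9.5 gate, 1.50 in E9.5 non-gated and 3.72 in E9.5 GFP- cells, and at -2.14 in the E11.5 gate and -1.99 in E11.5 non-gated cells. Its range of 83.7-fold was the widest of the 39, with both E11.5 populations at the bottom and E9.5 gated cells below the 2 other populations of their stage. In the array's mm9 coordinates, the Slc2a1 probe lies on chromosome 4 from 118809864 to 118809923 and the Slc2a3 probe on chromosome 6 from 122678075 to 122678134.

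The hexokinases, which phosphorylate glucose and so hold it in the cell, did not move together. Hk2, the inducible form, stood at 4.31 in E8.5 GFP+ and 3.89 in E8.5 GFP- cells, at 3.68 in the E9.5 gate, 3.64 in E9.5 non-gated and 3.65 in E9.5 GFP- cells, and at 3.38 in the E11.5 gate and 1.08 in E11.5 non-gated cells. Levels on 6 arrays lay within 0.93 log2 units of each other, and non-gated cells of E11.5 lay 2.30 below the lowest of these. Hk1, the broadly expressed form, stood at 2.27 in E8.5 GFP+ and 5.53 in E8.5 GFP- cells, at 3.87 in the E9.5 gate, 2.94 in E9.5 non-gated and 3.76 in E9.5 GFP- cells, and at 3.98 in the E11.5 gate and 4.04 in E11.5 non-gated cells. On this probe it was highest in GFP- cells of E8.5 and lowest in GFP+ cells of the same stage. Non-gated cells of E11.5 came second, within spot noise of both gates. The second Hk1 probe was also highest in GFP- cells of E8.5. It was lowest in non-gated cells of E9.5, at -2.47 beside -2.29 in GFP+ cells of E8.5. At E11.5 it stood at -0.97 in gated and -1.60 in non-gated cells. Gpi1, which turns glucose phosphate into fructose phosphate, ranged 2.25-fold, and its 3 probes all had their lowest level in non-gated cells of E11.5.

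Phosphofructokinase, the committed step of glycolysis, has liver, muscle and platelet subunits. The liver subunit Pfkl stood at 3.04 in E8.5 GFP+ and 2.77 in E8.5 GFP- cells, at 2.41 in the E9.5 gate, 2.32 in E9.5 non-gated and 2.52 in E9.5 GFP- cells, and at 2.14 in the E11.5 gate and 1.42 in E11.5 non-gated cells, highest at E8.5 and lowest in the E11.5 cells outside the gate. The muscle subunit Pfkm stood at -0.70 in E8.5 GFP+ and -0.12 in E8.5 GFP- cells, at -0.82 in the E9.5 gate, -0.28 in E9.5 non-gated and -0.43 in E9.5 GFP- cells, and at -0.40 in the E11.5 gate and 0.07 in E11.5 non-gated cells, with its highest level where Pfkl had its lowest. The platelet subunit Pfkp stood at 2.39 in E8.5 GFP+ and 2.86 in E8.5 GFP- cells, at 1.53 in the E9.5 gate, 1.90 in E9.5 non-gated and 1.85 in E9.5 GFP- cells, and at 2.46 in the E11.5 gate and 1.84 in E11.5 non-gated cells. It was highest in GFP- cells of E8.5 and lowest in gated cells of E9.5, and its second probe disagreed on the direction at E11.5. Pfkfb3, which makes the main activator of phosphofructokinase, was like Pfkl at both ends, with 2.72 in GFP+ cells of E8.5 as its highest and 1.37 in non-gated cells of E11.5 as its lowest level. Pfkfb4, of the same enzyme family, stood at -2.15 in E8.5 GFP+ and 1.85 in E8.5 GFP- cells, at -2.83 in the E9.5 gate, -1.45 in E9.5 non-gated and -1.57 in E9.5 GFP- cells, and at -2.44 in the E11.5 gate and -1.61 in E11.5 non-gated cells. The GFP- cells of E8.5 were 3.29 log2 units above the next array, and the other 6 arrays spanned 1.39. The second Pfkfb4 probe was also highest there, and it was not well above background on the other 6 arrays.

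Aldolase splits the hexose into a pair of trioses. Aldoa, the ubiquitous form, stood at 6.90 in E8.5 GFP+ and 6.82 in E8.5 GFP- cells, at 6.05 in the E9.5 gate, 6.22 in E9.5 non-gated and 6.32 in E9.5 GFP- cells, and at 5.62 in the E11.5 gate and 5.15 in E11.5 non-gated cells. Aldoc, the brain form, stood at 3.03 in E8.5 GFP+ and 1.87 in E8.5 GFP- cells, at 0.15 in the E9.5 gate, 0.38 in E9.5 non-gated and 1.08 in E9.5 GFP- cells, and at -0.71 in the E11.5 gate and -0.38 in E11.5 non-gated cells, a range of 13.4-fold against 3.36-fold for Aldoa. Both were highest in GFP+ cells of E8.5, Aldoa there within spot noise of GFP- cells of E8.5. Both were low at E11.5, with Aldoc lowest in the gate and Aldoa outside it. Tpi1, which interconverts the trioses, had its lowest level, 4.56, in non-gated cells of E11.5 and its highest, 5.96, in GFP- cells of E8.5.

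The lower part of glycolysis, which pays back energy, has 6 of the members, and 5 of them had the same highest and lowest population. Gapdh, Pgk1, Pgam1, Eno1 and Pkm2 were each highest in GFP+ cells of E8.5 and lowest in non-gated cells of E11.5, with ranges from 2.99-fold for Gapdh to 4.01-fold for Pgk1. The Pgk1 peak lay within spot noise of GFP- cells of E8.5. Pgk1, which makes the first ATP of the pathway, stood at 6.71 in E8.5 GFP+ and 6.63 in E8.5 GFP- cells, at 6.06 in the E9.5 gate, 6.35 in E9.5 non-gated and 6.50 in E9.5 GFP- cells, and at 5.96 in the E11.5 gate and 4.71 in E11.5 non-gated cells. The cells outside the gate at E11.5 were 1.25 log2 units below the next array, and the other 6 arrays lay within 0.75. For Gapdh, Pgam1, Eno1 and Pkm2 the same gap was 0.98, 0.99, 0.90 and 0.84. Gapdh, the enzyme that makes the first NADH and a common reference gene, had 7 probes, all lowest in these cells, with ranges over the arrays from 1.37 to 1.93 log2 units. Many of these enzymes have processed pseudogenes, and a Gapdh probe is placed on chromosome 8 and not on chromosome 6, so a probe may read more than the named gene. Eno1, the ubiquitous enolase, stood at 7.39 in E8.5 GFP+ and 6.84 in E8.5 GFP- cells, at 6.63 in the E9.5 gate, 6.95 in E9.5 non-gated and 6.90 in E9.5 GFP- cells, and at 6.50 in the E11.5 gate and 5.60 in E11.5 non-gated cells. Eno2, the neuronal enolase, stood at -1.03 in E8.5 GFP+ and -1.04 in E8.5 GFP- cells, at -0.29 in the E9.5 gate, -0.96 in E9.5 non-gated and -0.74 in E9.5 GFP- cells, and at -0.70 in the E11.5 gate and -0.46 in E11.5 non-gated cells. Eno2 thus spanned 0.75 log2 units and had its lowest levels at E8.5, where Eno1 was high in GFP+ cells.

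At the lactate step the isozymes differed in opposite directions between E8.5 and the later stages. Ldha, the subunit that favours lactate production, stood at 8.68 in E8.5 GFP+ and 8.63 in E8.5 GFP- cells, at 7.42 in the E9.5 gate, 7.99 in E9.5 non-gated and 8.05 in E9.5 GFP- cells, and at 7.63 in the E11.5 gate and 6.75 in E11.5 non-gated cells. Ldhb, the subunit that favours lactate use, stood at 1.94 in E8.5 GFP+ and 1.50 in E8.5 GFP- cells, at 3.07 in the E9.5 gate, 3.08 in E9.5 non-gated and 2.55 in E9.5 GFP- cells, and at 3.89 in the E11.5 gate and 3.71 in E11.5 non-gated cells. Every E8.5 level of Ldha was above every E9.5 and E11.5 level, and every E8.5 level of Ldhb was below every later level. The 2 E11.5 populations differed in Ldha by 0.88 and in Ldhb by 0.18. Of the lactate exporters, Slc16a3, the low-affinity form known as a HIF target, stood at 3.53 in E8.5 GFP+ and 2.73 in E8.5 GFP- cells, at 2.22 in the E9.5 gate, 2.10 in E9.5 non-gated and 2.30 in E9.5 GFP- cells, and at 1.49 in the E11.5 gate and 0.62 in E11.5 non-gated cells, a range of 7.53-fold that its second probe shared. Slc16a1, the general form, stood at -3.69 in E8.5 GFP+ and -3.15 in E8.5 GFP- cells, at -3.45 in the E9.5 gate, -4.20 in E9.5 non-gated and -2.24 in E9.5 GFP- cells, and at -3.92 in the E11.5 gate and -5.11 in E11.5 non-gated cells, the last not well above background. Its highest level was in GFP- cells of E9.5. Pdk1, the kinase that shuts off pyruvate dehydrogenase, stood at -0.78 in E8.5 GFP+ and -0.01 in E8.5 GFP- cells, at -1.19 in the E9.5 gate, -1.05 in E9.5 non-gated and -0.56 in E9.5 GFP- cells, and at -0.98 in the E11.5 gate and -2.28 in E11.5 non-gated cells. Its lowest level lay 1.09 log2 units under the next, again in the E11.5 cells outside the gate.

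**Figure D2:**
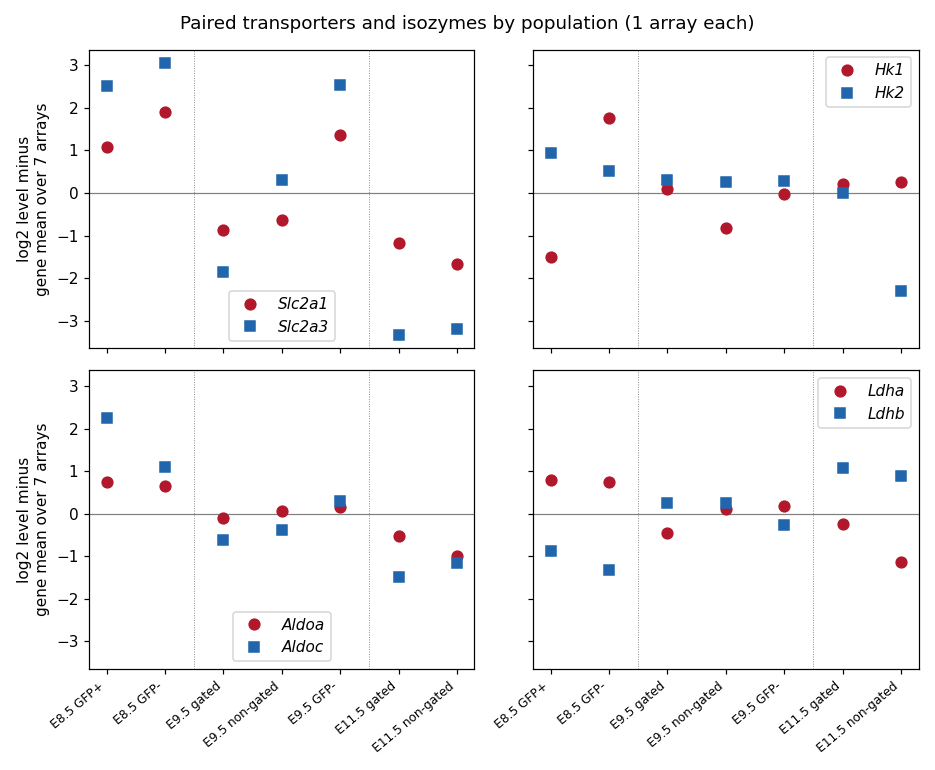
Log2 level minus the gene's own mean over the 7 arrays for 4 pairs of related genes, with 1 point per array and gene and dotted lines between stages. Ldhb lies above its mean at E11.5 and Ldha below, Slc2a3 spans 6.39 log2 units, and Hk2 is low in non-gated cells of E11.5 alone.

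The brightest probes of the 3 HIF subunits on the list each ranged less than 2-fold. Hif1a, the alpha subunit that drives the acute response, stood at 1.93 in E8.5 GFP+ and 1.77 in E8.5 GFP- cells, at 1.56 in the E9.5 gate, 1.47 in E9.5 non-gated and 1.44 in E9.5 GFP- cells, and at 1.54 in the E11.5 gate and 1.56 in E11.5 non-gated cells. Epas1, the alpha subunit of vessels and renal interstitium, stood at 3.25 in E8.5 GFP+ and 3.33 in E8.5 GFP- cells, at 3.14 in the E9.5 gate, 3.28 in E9.5 non-gated and 2.86 in E9.5 GFP- cells, and at 3.37 in the E11.5 gate and 3.61 in E11.5 non-gated cells. The ranges were 1.41-fold and 1.68-fold. Probes disagreed here: the second-brightest Epas1 probe stood at 0.68 in GFP+ cells of E8.5 and at -3.11 and -5.35 in gated and non-gated cells of E11.5, the last not well above background. The second Hif1a probe had -2.60 in gated and 0.00 in non-gated cells of E11.5, where the first probe had equal levels to within spot noise. No direction is therefore given for either gene. Their partner Arnt had its highest level, 3.01, in non-gated cells of E11.5 and lay between 2.02 and 2.43 on the other 6 arrays, although its second probe was highest in GFP- cells of E8.5. HIF activity is set mainly by protein stability, which these arrays do not measure.

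Of the prolyl hydroxylases, Egln1, the main oxygen sensor, stood at -3.19 in E8.5 GFP+ and -3.67 in E8.5 GFP- cells, at -2.92 in the E9.5 gate, -2.90 in E9.5 non-gated and -3.12 in E9.5 GFP- cells, and at -2.82 in the E11.5 gate and -3.58 in E11.5 non-gated cells, the second of these not well above background. Egln3, an inducible form that is itself a HIF target, stood at -0.48 in E8.5 GFP+ and -0.88 in E8.5 GFP- cells, at -0.41 in the E9.5 gate, -0.85 in E9.5 non-gated and -1.01 in E9.5 GFP- cells, and at -2.34 in the E11.5 gate and -2.61 in E11.5 non-gated cells. Both E11.5 populations were below all 5 earlier ones, and the second Egln3 probe had its 2 lowest levels there too, although it ordered the 2 the other way and the gated one was not distinguishable from background. Vhl, which recognises hydroxylated HIF, ranged 2.1-fold, with 2.32 in non-gated cells of E11.5 as its highest level and 1.25 in GFP- cells of E8.5 as its lowest. Its highest level lay within spot noise of non-gated cells of E9.5.

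Target genes outside glycolysis had several patterns. Adm, a vasodilator peptide, stood at -0.53 in E8.5 GFP+ and -1.95 in E8.5 GFP- cells, at -3.10 in the E9.5 gate, -1.63 in E9.5 non-gated and -1.98 in E9.5 GFP- cells, and at -4.00 in the E11.5 gate and -0.72 in E11.5 non-gated cells. At both E9.5 and E11.5 the gate held the lower level, and its 2 highest levels were in GFP+ cells of E8.5 and in cells outside the gate at E11.5. Ddit4, a stress-induced inhibitor of mTOR signalling, stood at 4.93 in E8.5 GFP+ and 5.12 in E8.5 GFP- cells, at 4.44 in the E9.5 gate, 4.52 in E9.5 non-gated and 5.33 in E9.5 GFP- cells, and at 4.97 in the E11.5 gate and 6.16 in E11.5 non-gated cells. Its highest level, in non-gated cells of E11.5, lay 0.83 log2 units above the next. P4ha2, a collagen prolyl hydroxylase subunit, stood at 2.66 in E8.5 GFP+ and 1.15 in E8.5 GFP- cells, at 0.93 in the E9.5 gate, 1.46 in E9.5 non-gated and 0.58 in E9.5 GFP- cells, and at 0.84 in the E11.5 gate and 1.27 in E11.5 non-gated cells. GFP+ cells of E8.5 were 1.20 above the next array. Its relative P4ha1 stood at -2.17 in E8.5 GFP+ and -2.20 in E8.5 GFP- cells, at -1.45 in the E9.5 gate, -1.95 in E9.5 non-gated and -1.14 in E9.5 GFP- cells, and at -2.03 in the E11.5 gate and -2.50 in E11.5 non-gated cells, with the highest level in GFP- cells of E9.5 and a second probe that disagreed on direction at E11.5 and was not well above background in either gate.

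The remaining targets ranged less than 4-fold. Vegfa, the main growth factor of vessels, ranged 1.74-fold and was highest, at 4.36, in non-gated cells of E11.5 on both of its probes. Bnip3, a mitophagy receptor, ranged 2.39-fold, with 4.35 in GFP+ cells of E8.5 as the highest and 3.09 in gated cells of E9.5 as the lowest level, and its second probe shared both ends. Car9, a surface carbonic anhydrase, had its highest levels, 1.11 and 1.18, in gated and non-gated cells of E11.5. Ndrg1, a stress response gene, ranged 2.17-fold and Ankrd37, an ankyrin repeat gene, 1.49-fold, and both were highest in gated cells of E9.5. Neither peak was beyond spot noise: GFP- cells of E8.5 came next for Ndrg1 and gated cells of E11.5 for Ankrd37.

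**Figure D3:**
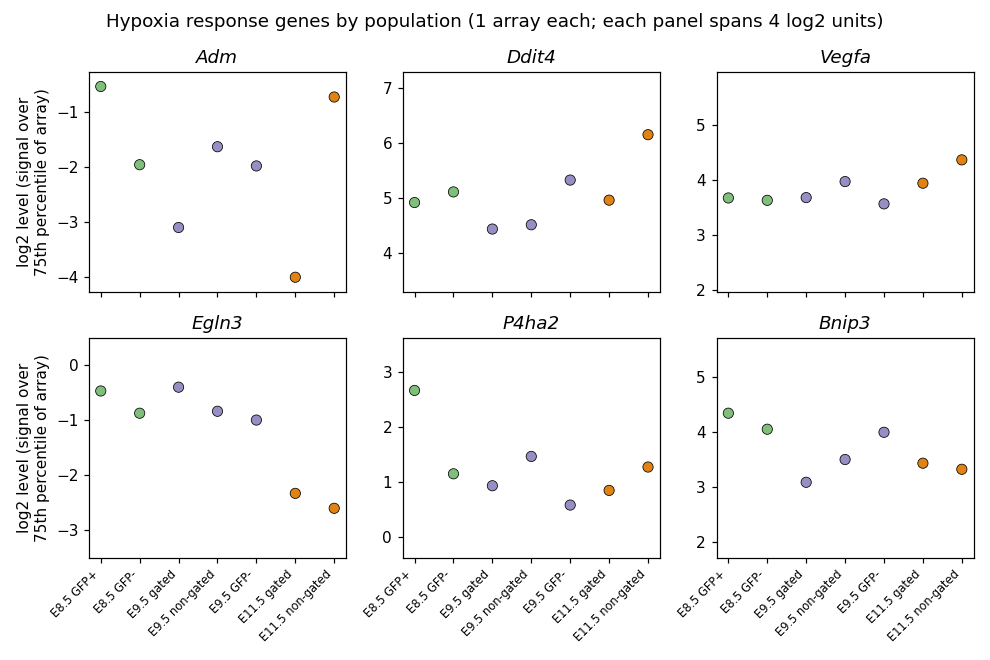
Log2 level of 6 hypoxia response genes on the 7 arrays (1 point per array, coloured by stage, each panel spanning 4 log2 units). Adm is low in gated cells of E9.5 and E11.5, Ddit4 and Vegfa are highest in non-gated cells of E11.5, Egln3 is low in both E11.5 populations, and P4ha2 and Bnip3 are highest in GFP+ cells of E8.5.

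At E11.5 the gate holds nephron progenitors, and the comparison with the rest of the sorted mesenchyme asks what sets them apart. Most glycolysis genes were higher in the gate by less than 2-fold, and the HIF targets Adm and Ddit4 were lower in it. Hk2 had a level of 3.38 in the gate against 1.08 outside it, which was 4.91-fold higher. Pdk1 was 2.45-fold, Pgk1 2.38-fold and Slc16a1 at least 2.18-fold higher. Adm, at -4.00 in the gate and -0.72 outside it, was 9.69-fold lower, and Ddit4 was 2.28-fold lower. With normexp background correction the log2 difference of Adm was -1.55 in place of -3.28. Of the 39 members, 4 were at least 2-fold higher and 2 lower, while 10.5% and 9.4% of all measured genes passed the same folds, so both counts were near the background. After quantile normalization 2 members were higher, against 7.77% of all genes, and 3 lower, against 10.4%. Slc16a1 was under 2-fold with quantile normalization, normexp background correction and the unscaled value table, Pgk1 with quantile normalization and Pdk1 with normexp, each with its sign kept. Of the 24 glycolysis genes, 18 were above 0, with a median log2 difference of 0.67, against 0.15 over all genes. With that median most measured genes were above 0 too, and their share was not counted. For the 15 hypoxia response genes the median was -0.18, and 10 were below 0. Gapdh, Pgam1, Eno1, Gpi1, Ldha, Slc16a3 and Pkm2 had differences between 0.84 and 0.99, just short of 2-fold. All 7 Gapdh probes and all 3 Gpi1 probes had positive differences. The second probe of Pfkp had -1.56 against 0.62 for the brightest, and that of P4ha1 -3.94 against 0.47. Those below 0 among the glycolysis genes were Pfkfb4, Pfkm, Aldoc, Eno2, Slc2a3 and Hk1, the last at -0.05.

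Beside these values, immediate early genes, known to respond within minutes to cell stress and enzyme digestion, also differed between the 2 E11.5 populations. All 8 of the list were found. Their summed level was 5.81 in gated and 7.40 in non-gated cells of E11.5, and between 2.97 and 4.39 on the other 5 arrays. Their part in the result, Ddit4 included, was not tested. Erythroid and endothelial lists had summed levels of 0.36 and 1.73 in the gate and -0.04 and 1.75 outside it, and Ahsp and Hba-x were not well above background in either.

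**Figure D4:**
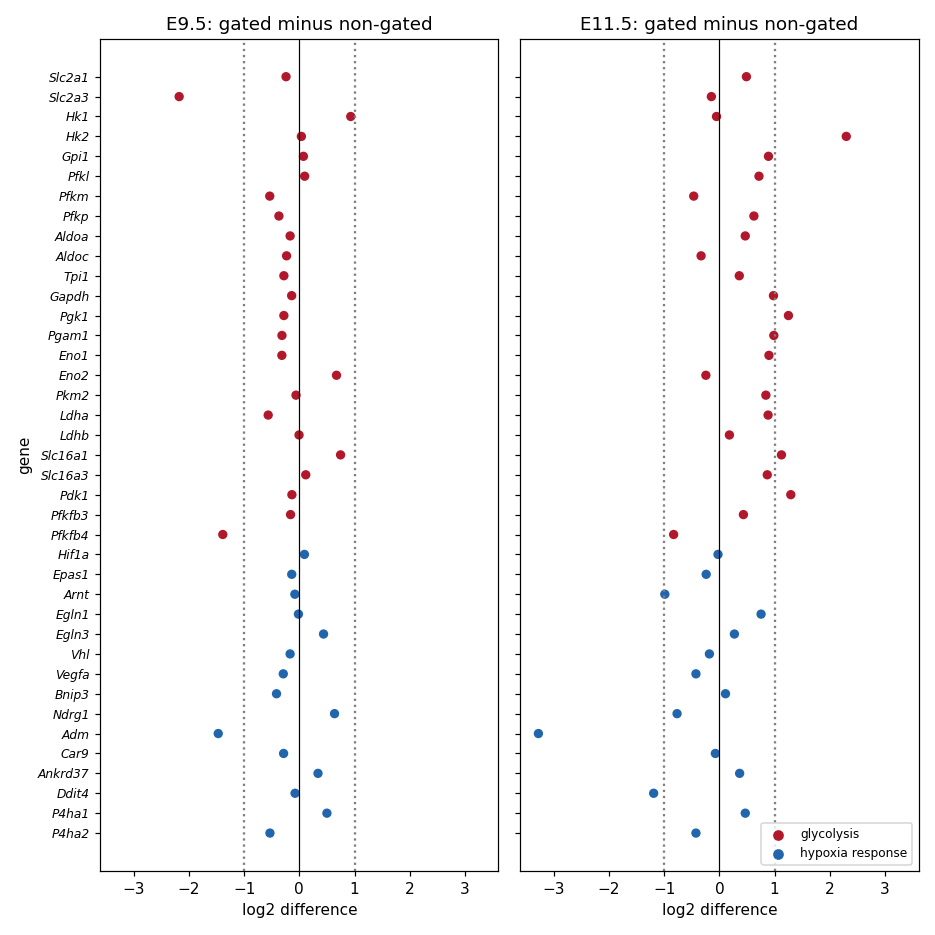
Log2 difference, gated minus non-gated cells, for each of the 39 genes at E9.5 (left) and E11.5 (right), with glycolysis genes in red, hypoxia response genes in blue and dotted lines at 2-fold. At E11.5, 18 of the 24 red points are above 0, and Hk2 and Adm lie farthest out; at E9.5, 7 are above 0.

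At E9.5 the same comparison looked different. No member was at least 2-fold higher in the gate, against 5.14% of all genes, and 3 were lower, against 9.36%. After quantile normalization 2 members were higher, against 8.25% of all genes, and 3 lower, against 7.3%. Slc2a3, at -0.67 in the gate and 1.50 outside it, was 4.52-fold lower, Adm 2.77-fold and Pfkfb4 2.61-fold lower. The glycolysis median was -0.16 and that of all genes -0.15. Pgk1, Gapdh and Ldha, which were higher in the gate at E11.5, had differences of -0.28, -0.14 and -0.56 here, and Gpi1 and Slc16a3 had 0.07 and 0.12. Hk2 stood at 3.68 in the gate and 3.64 outside it. Whether the 2 stages differ was not tested, and the E9.5 arrays lay on different slides. With normexp background correction Adm and Pfkfb4 were under 2-fold, at -0.68 and -0.63 on the log2 scale. Adm was the member at least 2-fold lower in the gate at both stages. Marker lists also differed between the 2 E9.5 arrays. Summed levels in gated against non-gated cells were 1.11 against 3.53 for erythroid genes and 2.47 against 4.11 for endoderm and epithelium. For endothelial genes the gate was higher, 2.92 against 2.49. The part of such cells in the differences was not tested.

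Against the GFP- cells of E9.5, on the same slide, the gate had lower levels of both glucose transporters. Slc2a3 was 21-fold lower, with -0.67 in the gate and 3.72 in GFP- cells. Slc2a1 was 4.74-fold lower, with 3.41 in the gate and 5.66 in GFP- cells. Pfkfb4, Slc16a1 and Adm were lower by 2.39-fold, 2.33-fold and 2.17-fold. These 5 of 39 were at least 2-fold lower, against 6.41% of all genes, and 0 were higher, against 5.69%. With the unscaled value table, 8 were lower, against 8.78%, and 0 higher, against 3.9%. Pfkfb4, Slc16a1 and Adm were under 2-fold with normexp background correction. Of the glycolysis genes, 20 of 24 were below 0 (median -0.33), against a median of 0.01 over all genes. Citrate cycle and respiratory chain genes had 19 of 23 below 0 and pentose phosphate genes 6 of 7. The lean below 0 was thus not particular to glycolysis. All 6 HIF subunits and regulators were above 0, by at most 0.60 and 3 of them by less than spot noise. That holds for the brightest probes: other probes had -0.79 for Hif1a, -2.89 for Arnt, -0.77 for Egln3 and as low as -0.35 for Epas1. The median of the hypoxia response genes was 0.14, and -0.06 with the mean over probes, so no direction is given for them. The GFP- cells held erythroid transcripts, with a summed level of 1.11 in the gate against 10.41, and all 10 markers above background there against 4 of 10 in the gate. Neural transcripts were also higher there, with a summed level of 1.72 in the gate against 6.11 in GFP- cells. The part of these cells in the differences was not tested.

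The 2 populations of E8.5, GFP+ against GFP-, differed by less than 2-fold in 21 of 24 glycolysis genes, with a median difference of 0.06 against 0.00 over all genes. Higher in the GFP+ cells were P4ha2 by 2.86-fold, Adm by 2.68-fold and Aldoc by 2.22-fold. Lower were Pfkfb4 by 16-fold, Hk1 by 9.57-fold and Ndrg1 by 2.11-fold. These were 3 of 39 on each side, against 7.03% of all genes at least 2-fold higher and 6.09% lower. Both probes of Pfkfb4 and of Hk1 were lower in the GFP+ cells. Ndrg1 and Adm were under 2-fold with normexp background correction, at -0.55 and 0.78 on the log2 scale, and Ndrg1 also with the unscaled value table, at -0.94. Pfkfb4 was at -3.04 with normexp in place of -4.00, and Hk1 at -2.40 with the mean over probes in place of -3.26. The erythroid list had a summed level of 2.88 in GFP+ against 11.30 in GFP- cells, with 7 and 10 of 10 markers above background, and its part in the Pfkfb4 and Hk1 values was not tested. In GFP- cells of E9.5, whose erythroid sum was 10.41, Pfkfb4 and Hk1 stood at -1.57 and 3.76, against 1.85 and 5.53 in those of E8.5.

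Between stages, most glycolysis genes were lower in the later cells outside the gate. In non-gated cells, E11.5 against E9.5 on 1 slide, 12 of 24 glycolysis genes were at least 2-fold lower at E11.5 and 1, Hk1 by 2.14-fold, was higher. Slc2a3 was 11.3-fold lower, Hk2 5.91-fold, Pgk1 3.11-fold and Slc16a3 2.79-fold. Eno1, Gapdh, Pgam1, Pkm2, Ldha, Pdk1, Aldoa and Slc2a1 were lower by between 2.03-fold and 2.54-fold. Among the 15 hypoxia response genes Egln3 was 3.4-fold lower and Ddit4 3.11-fold higher. Over all 39, 13 were lower and 2 higher, against 22.1% and 6.36% of all measured genes. The E11.5 array had 74% of spots above background, the E9.5 array 84.1%, and the median over all genes was -0.36, beside a glycolysis median of -0.96 and a hypoxia median of 0.17. With quantile normalization, which brings the median of all genes to 0.00, 9.58% of all genes and 6 members were lower, 11.1% of all genes were higher, and the glycolysis median was -0.79. With normexp background correction the log2 differences of Slc2a3 and Egln3 were -2.65 and -1.02 in place of -3.50 and -1.76. The 6 members lower after quantile normalization were Slc2a3, Hk2, Egln3, Pgk1, Slc16a3 and Pdk1. Other lists differed between the same arrays: the summed level was -0.44 at E11.5 against 4.11 at E9.5 for endoderm and epithelium, 7.10 against 4.71 for renal stroma and 7.40 against 4.27 for immediate early genes. It was also -0.04 against 3.53 for erythroid, 1.75 against 2.49 for endothelial and 3.37 against 2.17 for neural genes. Their part in the result was not tested.

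In the gate, 3 members were at least 2-fold apart between E11.5 and E9.5. Lower at E11.5 were Egln3 by 3.81-fold, Slc2a3 by 2.76-fold and Ndrg1 by 2.08-fold, which is 3 of 39 against 11.9% of all genes, and no member was 2-fold higher, against 6.06%. After quantile normalization 2 members were lower, against 9.33% of all genes, and 0 higher, against 8.1%. Slc2a3 was under 2-fold with normexp background correction and Ndrg1 with normexp and with quantile normalization, at -0.46 and -0.90. Egln3, -1.93 on its brightest probe, was at -1.19 with normexp and -3.66 with the mean over probes. The glycolysis median was -0.16 (all genes -0.03). Pgk1, Pgam1 and Eno1 differed by -0.11, -0.01 and -0.13, within the spot noise of 0.18, and Ldhb by 0.82. The difference in stage effect between gate and surrounding cells was not tested, since each side is 1 array, and the gated arrays lay on different slides.

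Gated cells of E9.5 set against GFP+ cells of E8.5 covered the earlier interval. Slc2a3 was 20.7-fold lower, Aldoc 7.33-fold, Adm 5.91-fold, Slc2a1 3.91-fold and P4ha2 3.32-fold lower, with Slc16a3, Bnip3 and Ldha lower by 2.49-fold, 2.39-fold and 2.38-fold. Higher were Hk1 by 3.04-fold, Ldhb by 2.18-fold and Ndrg1 by 2.17-fold. Ndrg1 was under 2-fold with quantile normalization and with normexp background correction, at 0.89 and 0.49 on the log2 scale, and Bnip3 with quantile normalization, at -0.96. Adm was at -1.44 with normexp, in place of -2.56. These were 8 and 3 of 39, against 6.84% of all genes lower and 12.7% higher. After quantile normalization 7 were lower, against 8.89%, and 2 higher, against 8.62%. The glycolysis median was -0.65, with 20 of 24 below 0, and the medians of the hypoxia response genes and of all genes were -0.04 and 0.00. These 2 populations differ in gate, body region and slide as well as stage, and they share arrays with the comparisons above.

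Neighbouring pathways were counted beside the members. At E11.5, gated against non-gated cells, genes of the citrate cycle and respiratory chain had 2 of 23 at least 2-fold higher and 0 lower. Their median was 0.54 beside the 0.67 of the glycolysis genes. Of the 23, 22 were above 0, so the lean above 0 was not particular to glycolysis genes. Cs, which makes citrate, and Tfam, a mitochondrial transcription factor, were the higher ones, at log2 differences of 1.04 and 1.32. Of the 7 pentose phosphate genes 1 was higher, G6pdx, the entry enzyme, by 2.02-fold (median 0.44). Further glycolysis and pyruvate genes had 2 of 20 at least 2-fold higher and 1 lower, with Eno3, the muscle enolase, 4.41-fold higher (median 0.27). Further hypoxia and HIF pathway genes had 4 of 36 at least 2-fold higher and 5 lower, near the 10.5% and 9.4% of all measured genes (median 0.04). Mxi1, a repressor of the Myc network, and Ak4, a mitochondrial adenylate kinase, were 10.9-fold and 5.11-fold higher in the gate, while Hif3a, an alpha subunit that can act as an inhibitor, was 12.2-fold lower.

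At E9.5 the gate stood out for Ppargc1a, a coactivator of mitochondrial biogenesis. It was 6.29-fold higher than in non-gated cells and 10.9-fold higher than in GFP- cells, and 46.5-fold higher than in GFP+ cells of E8.5. The citrate cycle and respiratory chain list held no other gene at least 2-fold higher in these 3 comparisons, and its medians were -0.21, -0.17 and -0.35. Of its 23 genes, 18, 19 and 22 were below 0. Car12, a membrane carbonic anhydrase, was 4.37-fold higher in the E9.5 gate than in non-gated cells, and in the gate it was at least 26.2-fold lower at E11.5 than at E9.5. P4ha3, another collagen prolyl hydroxylase subunit, was 5.86-fold lower in the E9.5 gate than in non-gated cells. Pklr, the liver and red cell pyruvate kinase, was at least 5.4-fold lower in the gate than in GFP- cells. Against GFP+ cells of E8.5, Pfkfb2, a heart relative of Pfkfb3, was at least 4.42-fold and Car12 5.21-fold higher in the E9.5 gate. In the gate, Mxi1 was at least 7.7-fold and P4ha3 4.86-fold higher at E11.5 than at E9.5, and Flt1, a receptor for Vegfa, was at least 12.8-fold lower. Of the 8 endothelial markers, 6 were also at least 2-fold lower in this comparison, and the part of endothelial cells in the Flt1 value was not tested. Between stages outside the gate, the further hypoxia list had 8 of 38 at least 2-fold higher and 10 lower, against 6.36% and 22.1% of all measured genes (11.1% and 9.58% after quantile normalization), with Pgf, a vascular growth factor, 6.38-fold and Hif3a 4.03-fold higher. Ak4, Car12 and Tfrc, the transferrin receptor, were 9.9-fold, at least 9.23-fold and 4.9-fold lower. The further glycolysis list had 2 of 22 at least 2-fold higher and 5 lower there. Citrate cycle and respiratory chain genes had 0 of 23 at least 2-fold higher and 4 lower (median -0.44). Of these 23, 22 were below 0, beside a median of -0.36 over all genes.

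At E8.5 the further hypoxia list had 3 of 36 at least 2-fold higher and 3 lower in GFP+ against GFP- cells, against 7.03% and 6.09% of all measured genes. Flt1 was 4.38-fold higher, and Hif3a and Cited2, a co-regulator that limits HIF activity, were 4.92-fold and 4.82-fold lower. Of the further glycolysis genes, 1 of 21 were at least 2-fold higher and 4 lower: Slc2a2, Bpgm, Pklr and Pdk2 were the lower ones. Bpgm makes the phosphate that tunes oxygen release from haemoglobin, and Pklr encodes the red cell pyruvate kinase. The part of red cells in these 4 values was not tested. In the E9.5 gate against GFP- cells, where the erythroid sums also lay far apart, Pklr was the 1 gene of this list at least 2-fold lower. Rpia, a pentose phosphate enzyme, was 5.94-fold lower.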

How the data were processed

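RNA of each sorted population (10 ng) was amplified and hybridised to a single-colour Cy3 Agilent array, per the labels' protocols. Per the submitters' processing notes, Agilent Feature Extraction (version 10.7.3.1) gave the authors' spot intensities, which are background-corrected processed signals on the linear scale, per the file headers. The deposited value table of the series held the same intensities in every spot. Spots with an outlier flag were dropped, spots of a probe were averaged, and levels were formed as log2 of the deposited intensity over the 75th percentile of the array's spots that were not controls. The brightest of a gene's probes stood for it, and 20323 of 55681 probes carry no gene name. A gene was measured in a comparison if it was well above background on at least 1 of the 2 arrays. A dim side was set to no less than the lowest signal well above background on its array, which gives the "at least" folds. A difference of 2-fold was counted, read against the share of all measured genes past the same fold. Spot noise came from 399 probes spotted 10 times per array. Its size, 0.13 on the log2 scale and 0.18 for a difference, covers the array and not embryos, sorts or amplification.

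The members and lists were chosen with earlier results of these data known. Levels on all 7 arrays are given for members whose range is at least 4-fold, for those at least 2-fold apart between gated and non-gated cells, and for paired isozymes. Genes of the further pathway lists are named where at least 4-fold apart in a comparison, and those named below that fold were chosen after their values were seen. Python 3.11.15, numpy 2.4.6 and pandas 2.3.3 were used, with R 4.3.3 and limma 3.58.1 for the normexp alternative with an offset of 50. The procedure was tested on simulated data with spot noise as the only spread and with changes placed in bright genes alone. That test says nothing on dim genes or on spread between embryos, sorts, amplifications or slides. Alternatives were quantile normalization, normexp, the unscaled value table, no filter on dim genes, a filter on both arrays, and the mean over a gene's probes. Probe positions are those of the array files (mm9), and promoter positions are of GRCm38.p6.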

Additional observations from a re-analysis of the deposited data

Results flagged for a closer look

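For 4 members, 1 array pair of a contrast moved one way and the other pair moved the opposite way, each beyond spot noise. Every group is 1 array and the contrasts share arrays, so the difference was not tested. Pgk1, gated against non-gated cells, had a log2 difference of 1.25 at E11.5 and -0.28 at E9.5, which are 1.53 apart. Ldha, E11.5 against E9.5, had 0.20 in the gate and -1.24 in non-gated cells, 1.45 apart. That rests on the brightest Ldha probe, whose 0.20 is near the spot noise of 0.18; the other 2 probes had -1.01 and -0.41 in the gate and were negative in both populations. Pdk1 had 0.20 and -1.23 in the same comparisons, 1.43 apart, and its 0.20 is likewise near spot noise. Ndrg1 had -1.05 in the gate and 0.35 in non-gated cells, a difference of -1.40. Its value in the gate was under 2-fold with quantile normalization and with normexp, as given above. Opposed pairs by the same criterion were found for 10.5% of 21030 genes between gated and non-gated cells (1 of the members) and for 10.1% of 20988 genes between stages (3 of the members).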

How the results depend on the processing

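None of the 49 member differences past 2-fold changed sign under the 6 alternatives. Over all members, 65 of 1635 differences did, 10 of them with both values beyond spot noise, all with the mean over probes. These include Pfkp, Pfkfb4, Epas1, Egln3 and P4ha1 between gated and non-gated cells of E11.5, at -0.47, 0.64, 1.28, -1.30 and -1.74 in place of 0.62, -0.83, -0.24, 0.27 and 0.47. Of the counts of members past 2-fold, 72 of 84 stayed within 1.5 times the reported one. Differences past 2-fold moved by more than spot noise in 57 of 293 cases. With quantile normalization, 2 members in place of 0 were at least 2-fold higher in the E9.5 gate than in non-gated cells, 2 in place of 4 were higher in the E11.5 gate, and 6 in place of 13 were lower in non-gated cells of E11.5 than of E9.5. With normexp background correction, 1 in place of 3 was lower in the E9.5 gate than in non-gated cells, 2 in place of 5 against GFP- cells, 2 in place of 4 were higher in the E11.5 gate, and 1 in place of 3 was lower in the gate at E11.5 than at E9.5. With the unscaled value table, 8 in place of 5 were lower in the E9.5 gate than in GFP- cells, and 4 in place of 2 were lower in the E11.5 gate than in non-gated cells. With the mean over probes, 5 in place of 2 were lower in the E11.5 gate, 1 in place of 0 was higher in the gate at E11.5 than at E9.5, and 1 in place of 2 was higher in non-gated cells of E11.5 than of E9.5. The cause of these shifts was not tested. Of 49 member differences past 2-fold, 35 stayed past it with normexp, 37 with quantile normalization, 45 with the value table, 48 with the mean over probes and 49 with no filter. The glycolysis median between gated and non-gated cells of E11.5 lay between 0.46 and 0.67, and between non-gated cells of E11.5 and E9.5 between -1.05 and -0.79. The median of all genes in the second comparison was -0.36 as reported, 0.00 after quantile normalization, -0.22 with normexp and -0.19 with the value table. No paired analysis was possible because each population has 1 array. For the same reason no replicate could be left out, and slide as a block was not run. Levels of Slc16a1 and Egln1 reach the background on 1 array each, where they give bounds.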
